A study of Mus musculus with 2 samples.

Results

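The DEAD box (Ddx) and DEAH box (Dhx) RNA helicases of CD8+ T cells were compared between mice lacking Bcl11b in T cells and wild-type mice. Members were the genes whose name on the array begins with Ddx or Dhx followed by a number, leaving out the 2 names that end in 58, which belong to the RIG-I-like virus sensors. The array holds 49 such genes, measured by 88 probes, among 27745 gene names. Of these, 44 genes passed the filter on dim spots (1 of the 2 colours well above background on both arrays), as did 9943 of all genes. The remaining 5 were Ddx11, Ddx3y, Ddx4, Ddx59 and Dhx37.

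DEAD and DEAH box proteins share a helicase core that binds RNA and ATP and are named after the amino acid letters of one of its motifs. DEAD box members pry open short helices and displace proteins from RNA, while DEAH box members travel along a strand. They work at nearly every step of RNA life: ribosome assembly in the nucleolus, pre-mRNA splicing, export, translation and decay. Activated T cells raise ribosome production and RNA processing as they grow and divide, so these steps are in demand in a responding CD8+ T cell.

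The deficient cells came from mice of genotype Bcl11bF/F/dLck-iCre: the distal Lck promoter drives a Cre recombinase that deletes the floxed Bcl11b gene in T cells. The other cells came from wild-type mice, and no Cre-only or floxed-only control was part of the arrays. Mice of both genotypes were infected with Listeria monocytogenes-OVA, a bacterium that carries ovalbumin, and their CD8+ T cells were isolated at day 6 by negative selection. There were 2 arrays, 1 per biological replicate, each with deficient RNA in red (Cy5) and wild-type RNA in green (Cy3). Because the dyes were never swapped, an effect of dye and an effect of genotype on a gene cannot be told apart. The labels do not give the age of the mice or say whether RNA was pooled.

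Bcl11b, the targeted zinc-finger transcription factor (probe at chr12:108363444-108363503, build NCBI36), had log2 ratios of -0.69 and -2.95 on replicates 1 and 2. It was lower in deficient RNA at -1.82 ± 1.60 (mean ± SD, n = 2 here and below; adjusted p = 6.5e-04). Exons were not assigned, so it is not known whether this probe lies in the deleted part. On replicates 1 and 2, 32.4% and 28.9% of gene spots were well above background for wild-type RNA, as were 26.0% and 31.1% for deficient RNA. The median signal of negative-control spots was 326.5 and 406 in green (wild type), and 968 and 707 in red (deficient). A dim deficient signal on replicate 1 was therefore close to the signal of spots that match no mouse gene. All ratios are deficient over wild type on the log2 scale, so a negative value means less RNA in deficient cells. The standard error was pooled over genes and came to 0.42 for all alike, so a gene's own spread between the arrays did not enter its p-value, and a gene was called when its mean log2 ratio was at least 1.18 in size.

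Ddx18, Ddx31, Ddx19b and a gene named Ddx26b on the array were lower in deficient cells by the test, and no member was higher. The count of 4 of 44 stands beside 6.00% of all genes called lower, and the count of 0 higher beside 3.67% called higher. At an unadjusted p under 0.05 there were 9 members, 8 of them below 0 and Ddx19a above 0, a share of 20.5% that lay near the 21.9% of all genes. The median member had a log2 ratio of -0.24, against -0.12 over all genes tested, and the members ranged from -2.78 to 0.85. In RNA from a cell population, fewer cells of a type and less RNA per cell cannot be told apart.

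The arrays differed in how far the members moved. On replicate 1 the median member was at -0.45 and 32 of 44 were below 0, where 58.6% of all genes were. On replicate 2 the median was -0.04 and 24 were below 0, where 50.6% of all genes were. Both arrays put 21 members below 0, against 41.6% of all genes, and 9 members above 0, against 32.4%. The other 14 had opposite signs on the 2 arrays. More than 2-fold lower were 13 members on replicate 1 (21.6% of all genes) and only Ddx18 on replicate 2 (2.52%). More than 2-fold higher on replicate 1 were Ddx19a and Ddx25, beside 7.58% of all genes, and no member was on replicate 2. The ratio was lower on replicate 1 than on replicate 2 for 34 members, as it was for 6148 of the 9943 genes. The members' values spread with an SD of 1.02 on replicate 1 and 0.37 on replicate 2.

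**Figure D1:**
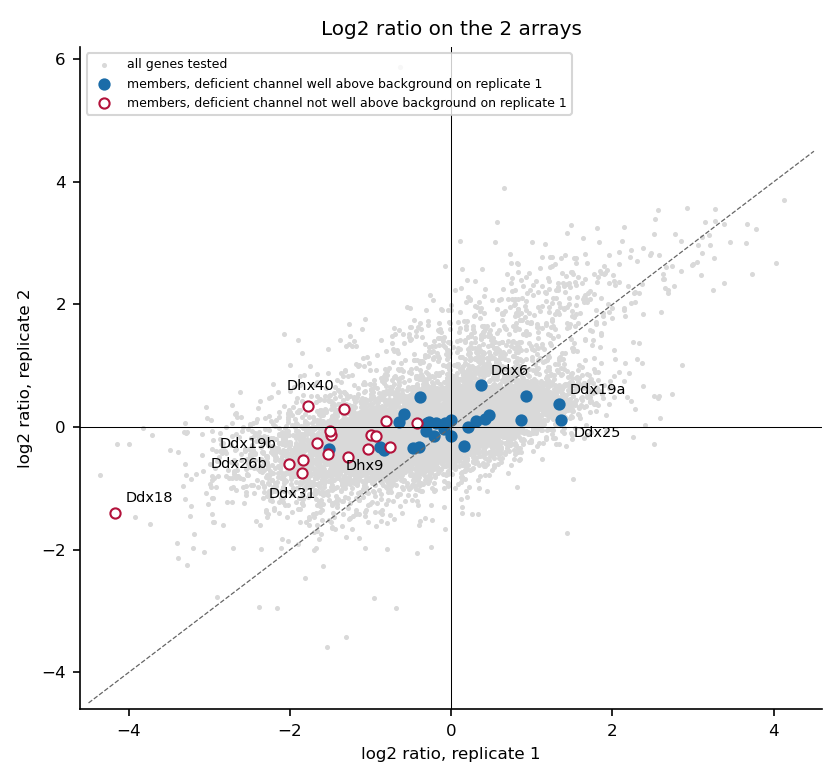
Each point is a gene, with its log2 ratio on replicate 1 (x axis) and on replicate 2 (y axis). Grey points are all genes tested, and large points are the 44 members, open where deficient RNA was not well above background on replicate 1. The dashed line marks equal ratios, and members lie in a flat band, from -4.17 to 1.37 on replicate 1 and from -1.39 to 0.68 on replicate 2.

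Across the 44 members the arrays' ratios had a Pearson correlation of 0.72 and a Spearman correlation of 0.64, and across all genes 0.59 and 0.61. Members share both hybridizations and are not independent, so these are descriptions of the 2 arrays. Split by helicase type, the 30 Ddx genes had a median of -0.24 and held the 4 calls. The 14 Dhx genes had a median of -0.29, ranged from -0.96 to 0.49, and held no call, with 2 at an unadjusted p under 0.05. Over all genes 6.00% were called lower and 21.9% had an unadjusted p under 0.05, so these small counts do not separate the types. Of the Dhx genes, 12 were below 0 on replicate 1 and 8 on replicate 2.

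Promoter sequences of 3 members at the lower end are shown as a description, and a link between promoter and ratio was not tested. They are Ddx18 and Ddx31, the ribosome assembly members that passed the test, and Dhx9, the lowest member with both channels well above background on both arrays. Each is the RefSeq window (GRCm38.p6) of 250 bases before and 50 bases after the gene's start, and capitals mark CCGGAAG, the core of sites for ETS-family factors.
Ddx18, chr1:121567931-121568230, minus strand: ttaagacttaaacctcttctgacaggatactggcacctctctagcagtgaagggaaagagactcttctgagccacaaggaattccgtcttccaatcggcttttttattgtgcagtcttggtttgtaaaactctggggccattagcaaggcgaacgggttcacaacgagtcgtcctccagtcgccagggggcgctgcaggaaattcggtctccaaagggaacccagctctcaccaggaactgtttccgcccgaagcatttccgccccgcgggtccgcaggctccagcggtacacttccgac
Ddx31, chr2:28840156-28840455, plus strand: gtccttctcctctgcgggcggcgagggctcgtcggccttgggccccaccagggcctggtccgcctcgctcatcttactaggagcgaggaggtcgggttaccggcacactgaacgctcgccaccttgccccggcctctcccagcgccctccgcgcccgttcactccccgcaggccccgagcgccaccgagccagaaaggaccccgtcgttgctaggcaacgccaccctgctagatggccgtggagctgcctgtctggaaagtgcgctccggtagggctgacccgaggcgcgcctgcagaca
Dhx9, chr1:153487611-153487910, minus strand: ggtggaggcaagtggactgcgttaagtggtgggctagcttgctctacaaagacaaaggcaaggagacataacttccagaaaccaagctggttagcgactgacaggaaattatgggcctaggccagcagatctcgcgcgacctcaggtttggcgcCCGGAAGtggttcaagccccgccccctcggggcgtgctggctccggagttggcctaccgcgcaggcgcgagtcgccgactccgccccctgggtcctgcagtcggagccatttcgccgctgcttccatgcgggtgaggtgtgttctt
Searched on both strands, CCGGAAG stood in 19 of 51 windows of measured members (37.3%) and in 8.86% of all 32851 windows. CACGTG, the E-box bound by Myc and its relatives, stood in 6 of the 51 (11.8%) and in 7.15% of all windows. The CGCG element is a longer palindromic promoter motif with the letters CGCG at its centre, and only the whole motif was searched. The whole motif stood in none of the 51 and in 0.466% of all windows. The letters CGCG alone, which also stand in the printed windows, did not count as a match. None of the 3 motifs overlaps another by its letters. The members' windows had a median GC content of 59.7% and 24 CpG dinucleotides, against 52.7% and 7 over all windows. All windows cover 27025 genes, many of them not among the 9943 measured. Shares over measured genes, or over windows of like CpG content, were not computed. Ddx18 and Ddx31 held none of the 3 motifs, and neither did any of the 5 windows of the 4 called genes. RefSeq windows were matched for 40 of the 44 measured members.

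Ribosome assembly was the largest role, with 15 measured members. These nucleolar helicases remodel the precursors of the small and large ribosomal subunits. Their median log2 ratio was -0.36, and 11 of 15 were below 0 on replicate 1 and 10 on replicate 2. Ddx18 and Ddx31 were lower by the test, beside 6.00% of all genes, and the other 13 were not called. This small count does not set the role apart.

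Ddx18, the counterpart of yeast Has1, acts in the assembly of both ribosomal subunits. Its probe (NM_025860, chr1:123382820-123382879, NCBI36) read 10.55 and 10.24 in wild-type RNA of replicates 1 and 2 and 6.38 and 8.85 in deficient RNA, as normalized log2 intensity. Both deficient values lay below both wild-type values, and the deficient value of replicate 1 was the lowest. Like the other called members, Ddx18 passed the filter through wild-type RNA alone, which favours this order, so it is given as a description. The log2 ratios were -4.17 and -1.39, a mean of -2.78 ± 1.96 (adjusted p = 1.0e-08). This was the lowest mean ratio of any member. The deficient channel was well above background on replicate 2 alone: before correction its spot signal was 755 on replicate 1, under the negative-control median of 968, and 1099 on replicate 2.

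Ddx31 acts in assembly of the large subunit. Its probe (NM_001033294, chr2:28727107-28727166) read 9.80 and 9.62 in wild-type RNA and 7.94 and 8.87 in deficient RNA. The genotypes did not overlap, an order favoured by its passing the filter through wild-type RNA alone. The ratios of -1.86 and -0.75 gave -1.30 ± 0.78 (adjusted p = 0.026). Its deficient signal before correction was 1022 on replicate 1, near the negative-control median, and it was well above background on replicate 2 alone.

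The next 4 members of this role were not called. Ddx51, which releases a small nucleolar RNA from the large-subunit precursor, was at -1.53 and -0.43 (-0.98 ± 0.77, adjusted p = 0.126). Ddx55, a large-subunit factor, was at -1.28 and -0.49 (-0.89 ± 0.56, adjusted p = 0.179). On neither array was deficient RNA well above background, so Ddx55 has only a bound: wild-type RNA was at least 1.19-fold higher. Ddx47 and Ddx52, which act on the small-subunit precursor, were at -1.49 and -1.51 on replicate 1 and -0.13 and -0.07 on replicate 2. For both, nearly all of the mean came from replicate 1. Deficient RNA of Ddx51, Ddx47 and Ddx52 was not well above background on that array.

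The remaining members of this role lay nearer to 0. Ddx10 was at -0.54 ± 0.31 and Ddx49 at -0.18 ± 0.34, both with deficient RNA not well above background on replicate 1. Ddx27, Ddx56, Dhx33, Ddx54 and Ddx24 lay between -0.07 and 0.06. Ddx21 and Ddx50 are close relatives encoded side by side and both reside in the nucleolus. Ddx21 had ratios of 0.42 and 0.13 (0.27 ± 0.21, adjusted p = 0.734), and Ddx50 had -0.40 and -0.32 (-0.36 ± 0.06, adjusted p = 0.644). These relatives had opposite signs on both arrays, and neither was called. Further probes of Ddx21 read 0.03 and -0.39, so its own probes did not share a sign.

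**Figure D2:**
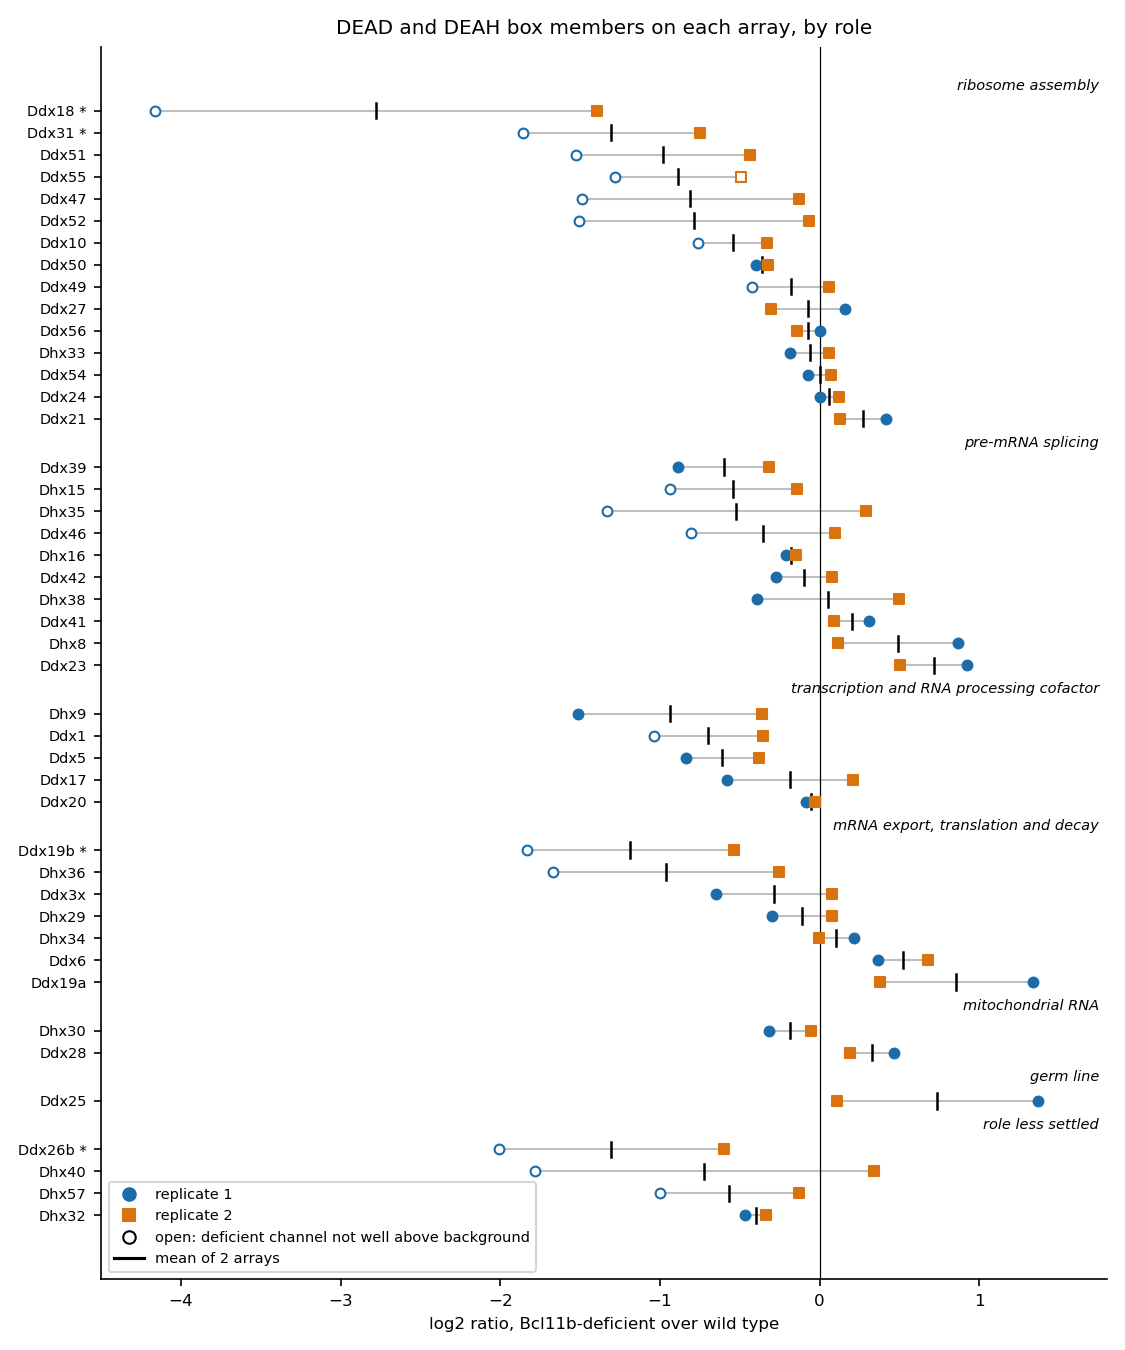
The 44 measured members are grouped by role and sorted by mean log2 ratio (x axis, deficient over wild type). Circles show replicate 1, squares replicate 2, black ticks the mean of the 2 arrays, and open symbols a deficient channel not well above background. Asterisks mark the 4 members called lower, whose replicate 1 circles are all open.

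Splicing helicases were the next group, with 10 measured members, a median of -0.14 (-0.33 on replicate 1 and 0.09 on replicate 2) and no call. These enzymes drive the rearrangements of the spliceosome in turn, from recognition of the branch site to release of the spent machine. Ddx39 (now Ddx39a), a relative of the export and splicing factor Ddx39b, had the lowest mean, with -0.88 and -0.32 (-0.60 ± 0.40, adjusted p = 0.413). Dhx15, which dismantles the spliceosome, followed with -0.94 and -0.14 (-0.54 ± 0.56, adjusted p = 0.469). Dhx35 was at -1.33 and 0.29, and Ddx46, the branch-site factor Prp5, at -0.81 and 0.10. These 2 changed sign between the arrays. For Dhx15, Dhx35 and Ddx46, deficient RNA was not well above background on replicate 1.

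At the upper end of this group was Ddx23, the tri-snRNP component that helps to activate the spliceosome. Its probe read 8.67 and 8.61 in wild-type RNA and 9.59 and 9.11 in deficient RNA. It passed the filter through deficient RNA alone, which fixes that direction, so the order of the groups is a description. The ratios were 0.92 and 0.51 (0.71 ± 0.30, adjusted p = 0.307), and the gene was not called. On neither array was wild-type RNA well above background. Its levels still lay above the lowest level that counted as such (8.63 and 8.59). The bound therefore equals the mean ratio, 1.64-fold, and sets no lower limit. Dhx8, which releases the finished mRNA from the spliceosome, had 0.87 and 0.12 (0.49 ± 0.53, adjusted p = 0.509). Dhx38, needed for the second catalytic step, had -0.39 and 0.50. Dhx16, Ddx42 and Ddx41 lay at -0.18, -0.10 and 0.20.

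The 5 members that act as cofactors of transcription and RNA processing were all below 0 on replicate 1, and 4 of them on replicate 2. Their median was -0.61, and none was called. Dhx9 (RNA helicase A) bridges transcription factors to RNA polymerase and unwinds structured RNA. It read 12.87 and 12.82 in wild-type RNA and 11.36 and 12.46 in deficient RNA (NM_007842, chr1:155218158-155218217). Both deficient values lay below both wild-type values, with replicate 1 further down. The ratios of -1.51 and -0.36 gave -0.94 ± 0.82 (adjusted p = 0.150). Both its channels were well above background on both arrays, and it passed the test in 2 of 11 alternatives (adjusted p = 0.0266 with median centring and 0.0315 when both channels had to be well above background). Over the 11 alternatives its adjusted p ran up to 0.281.

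Ddx5 (p68) and Ddx17 (p72) are paralogs that serve as coactivators and in microRNA processing and splicing. Ddx5 read 13.29 and 13.26 in wild-type RNA and 12.45 and 12.88 in deficient RNA. Its groups did not overlap, its ratios were -0.84 and -0.38 (-0.61 ± 0.32, adjusted p = 0.406), and a further probe gave -1.73 and -0.38. Ddx17 was at -0.58 on replicate 1 and 0.21 on replicate 2 (-0.19 ± 0.56, adjusted p = 0.818). Ddx1, found in the tRNA ligase complex, had -1.04 and -0.36 (-0.70 ± 0.48, adjusted p = 0.321). That probe of Ddx1 was not well above background in deficient RNA on replicate 1. A further probe of Ddx1 read 0.07 and -0.17. Ddx20 (Gemin3), of the SMN complex that assembles spliceosomal snRNPs, was at -0.06 ± 0.04.

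**Figure D3:**
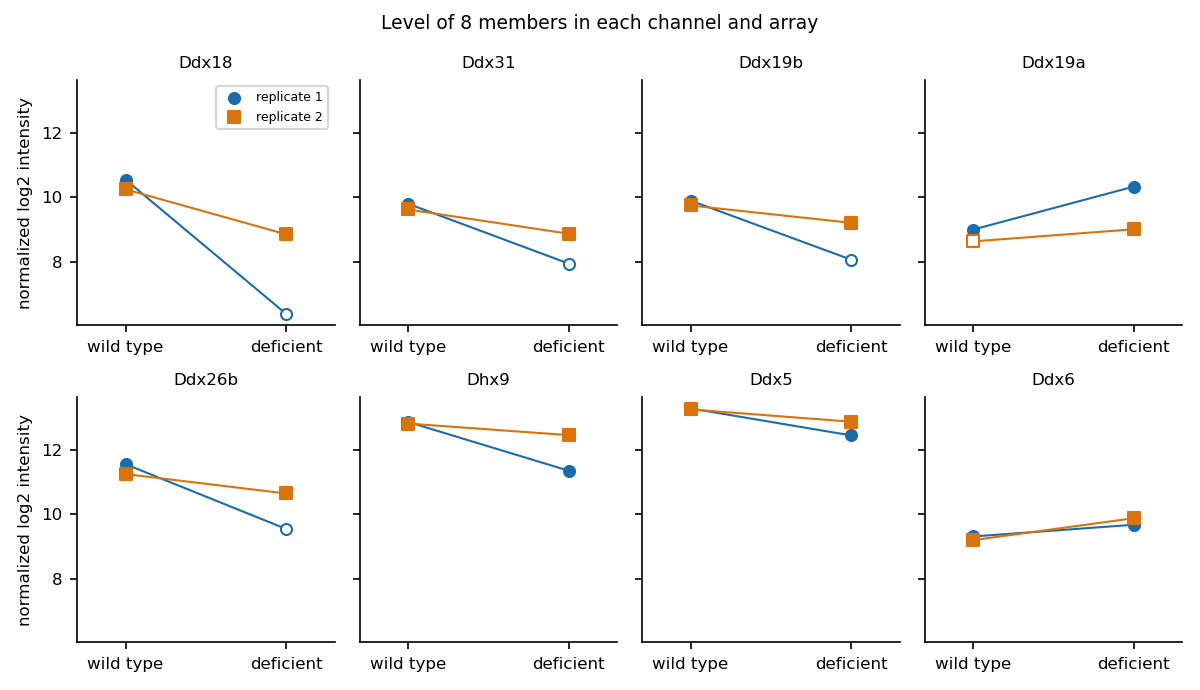
Normalized log2 intensity (y axis) of 8 members in wild-type and deficient RNA, with lines joining the channels of 1 array (circles for replicate 1, squares for replicate 2). Open symbols mark a channel not well above background. Lines fall more steeply on replicate 1 for Ddx18, Ddx31, Ddx19b, Ddx26b, Dhx9 and Ddx5, and rise on both arrays for Ddx19a and Ddx6. Levels of different probes are not comparable with one another.

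Members of export, translation and decay were 7, with a median of -0.11, and held the largest contrast among the 3 measured pairs of close relatives. Ddx19a and Ddx19b are neighbouring copies of the helicase that strips export proteins from mRNA at the nuclear pore. Ddx19b (NM_172284, chr8:113889891-113889950) read 9.90 and 9.74 in wild-type RNA and 8.06 and 9.21 in deficient RNA. Its ratios were -1.83 and -0.54, a mean of -1.19 ± 0.92 (adjusted p = 0.048). Deficient RNA was well above background on replicate 2 alone. On replicate 1 its signal before correction was 1046, near the negative-control median of 968. The genotypes did not overlap, but Ddx19b passed the filter through wild-type RNA alone, which favours this order, so it is a description. Ddx19a (NM_007916, chr8:113862166-113862225), whose probe lies 27.7 kb away, read 9.0 and 8.63 in wild-type RNA and 10.33 and 9.01 in deficient RNA. Its higher deficient value came from replicate 1. The ratios were 1.33 and 0.38 (0.85 ± 0.68, unadjusted p = 0.041, adjusted p = 0.202), the highest mean of any member and not a call. Wild-type RNA was well above background for Ddx19a on 1 array. Ddx19a therefore passed the filter through deficient RNA alone, which favours a ratio above 0. The copies passed through opposite channels, so the contrast between them is a description. Further probes that did not pass the filter read -0.03 for Ddx19a and -0.70 for Ddx19b. RNA of a near-identical copy can bind a probe of the other, and the difference between the copies was not tested.

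Dhx36, which unfolds G-quadruplexes in mRNA, had -1.67 and -0.26 (-0.96 ± 1.00, adjusted p = 0.135). Its deficient RNA was well above background on replicate 2 alone. Ddx6, a decay and translation-repression factor of P-bodies, was above 0 on both arrays. It read 9.32 and 9.20 in wild-type RNA and 9.68 and 9.89 in deficient RNA, and its ratios were 0.36 and 0.68 (0.52 ± 0.22, adjusted p = 0.484). It was the only member whose ratio on replicate 2 passed 0.51, and it was not called. Ddx3x, an X-linked helicase of translation initiation, had -0.65 and 0.08 (-0.29 ± 0.51, adjusted p = 0.723), and a further probe had -1.42 and -0.14. Its Y-linked relative Ddx3y did not pass the filter: each channel was well above background on 1 array. Dhx29, a scanning factor, and Dhx34, of nonsense-mediated decay, lay at -0.11 and 0.11.

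Outside these roles, the mitochondrial members Dhx30 and Ddx28, which serve mitochondrial ribosome assembly, lay at -0.19 ± 0.18 and 0.33 ± 0.19. Ddx25, a helicase of male germ cells, had 1.37 and 0.11 (0.74 ± 0.89, adjusted p = 0.289). Ddx4 (Vasa), the helicase that defines germ cells, had 0 arrays with a channel well above background.

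Of 4 members whose role is less settled, 1 was called lower, beside 6.00% of all genes, a count too small to set them apart. The gene named Ddx26b on the array is now Ints6l, a relative of Integrator subunit 6, and is no longer named as a helicase. Its probe (NM_172779, chrX:52854339-52854398) read 11.56 and 11.25 in wild-type RNA and 9.55 and 10.65 in deficient RNA, without overlap. It passed the filter through wild-type RNA alone, which favours this order, and deficient RNA was well above background on replicate 2 alone. The ratios were -2.01 and -0.60 (-1.30 ± 1.00, adjusted p = 0.026). Further probes of the gene, none of which passed the filter, read -0.02, -0.29 and -0.13. Without Ddx26b, 3 members were called and the median was -0.19. Dhx40 was at -1.78 and 0.34, the widest gap between the arrays after Ddx18. Dhx57 and Dhx32 were at -0.57 ± 0.61 and -0.40 ± 0.10. For Dhx40 and Dhx57, deficient RNA was well above background on replicate 2 alone.

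Members also differed in which channels were detected. For 16 of 44 (36.4%), wild-type RNA was well above background on both arrays and deficient RNA on replicate 2 alone. The same pattern held for 2335 of all genes tested (23.5%). Such genes passed the filter through wild-type RNA alone, which favours ratios below 0 on replicate 1, so their counts and medians are descriptions and no support for a difference. These 16 members had medians of -1.50 on replicate 1 and -0.20 on replicate 2. All 16 were below 0 on replicate 1, 11 by more than 2-fold, and 12 were below 0 on replicate 2. The 4 called members were among them. All genes of this pattern had medians of -1.14 and -0.16, 99.8% of them were below 0 on replicate 1, and 317 of them were called lower. The 25 members with both channels well above background on both arrays had a median of -0.07 (-0.18 on replicate 1 and 0.07 on replicate 2), against 0.06 over the 5725 genes of that kind. None of these 25 was called, and Dhx9 was the lowest. Of the 5725 genes, 74 were called lower and 317 higher. Of this kind, 15 members were below 0 on replicate 1 and 11 on replicate 2, beside 47.4% and 45.3% of the 5725 genes. The part of the deficient channel's higher negative-control signal in these ratios was not tested.

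More than 1 passing probe measured 13 members, and those probes shared a sign for 10. The exceptions were Ddx21, Ddx27 (-0.07 and 0.49) and Dhx34. The median range between probes of a member was 0.56 on the log2 scale, as large as many of the differences above. The brightest probe stood for each gene, and 13 of the 17 further probes read lower than it. Of those 17, 14 were below 0. Most of the 17 passed the filter through wild-type RNA alone, which favours ratios below 0, so these counts are descriptions. Those well above background in both channels on both arrays read -0.05 (Ddx1), 0.06 (Ddx24), 0.49 (Ddx27), -1.05 (Ddx5) and -0.22 (Dhx34). Ddx46, with -0.36 by its brightest probe, read -0.78, -0.89 and -1.34 by the others. Dhx15 read -0.54 and -1.16, Dhx16 -0.18 and -0.91, and Ddx42 -0.10 and -0.86. The lower readings of these genes came from probes that passed through wild-type RNA alone. With the mean of a gene's probes in place of the brightest, the median member was at -0.39 and the same 4 were called.

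**Figure D4:**
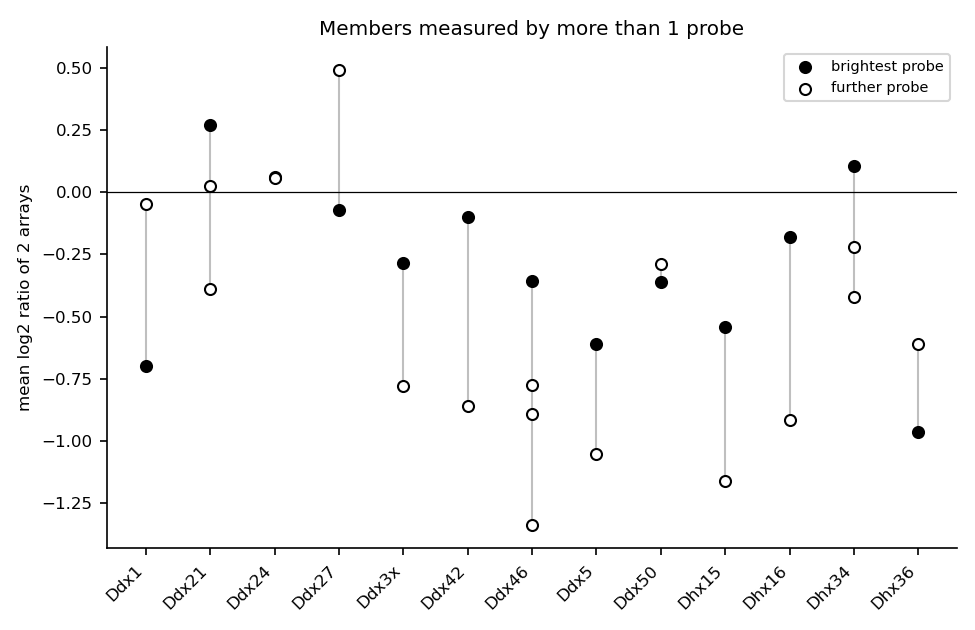
Mean log2 ratio over the 2 arrays (y axis) for every passing probe of the 13 members measured more than once (x axis). Filled points are the brightest probe of a gene and open points the further probes. Most open points lie below the filled one, and probes of Ddx21, Ddx27 and Dhx34 fall on both sides of 0. Most open points passed the filter through wild-type RNA alone, which favours ratios below 0.

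Other genes of the same steps were read from lists of factors that are not Ddx or Dhx genes. Of 80 ribosome assembly factors, 69 were measured, with a median of -0.36. Beside 6.00% of all genes called lower and 3.67% called higher, 10 were called lower and none higher. Among the lower were Las1l, which cuts the spacer of the large-subunit precursor (-1.79 ± 1.36, adjusted p = 8.4e-04), Rrp15, a large-subunit factor (-1.51 ± 0.50, adjusted p = 0.0070), and Utp20, of the small-subunit precursor. Las1l and Rrp15 were well above background in deficient RNA on 1 array, so their ratio on the other rests on a dim signal. Utp20 was not well above background there on either, and wild-type RNA was at least 1.44-fold higher. The list's median was -0.54 on replicate 1 and -0.22 on replicate 2, with 53 and 54 of the 69 genes below 0.

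Of 95 spliceosome proteins, 91 were measured, with a median of -0.35. Beside 6.00% of all genes called lower and 3.67% called higher, 4 were called lower and none higher. The lowest were the branch-site component Sf3b4 (-1.77 ± 1.33), the splicing regulator Hnrnph1 (-1.43 ± 1.42) and the 3′ splice-site factor U2af1 (-1.30 ± 0.95). Of 68 genes of mRNA export, the exon junction complex and decay, 55 were measured, with a median of -0.28. Beside the same shares of all genes, 3 were called lower and none higher. These were the exosome subunit Exosc7 (wild-type RNA at least 1.49-fold higher), the exon junction gene Magohb (at least 1.36-fold higher) and the P-body gene Lsm14a (-1.34 ± 1.43). Sf3b4, U2af1 and Lsm14a were well above background in deficient RNA on 1 array, and Hnrnph1 on both.

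Of 29 helicases with other names, 18 were measured, with a median of -0.51. Beside 6.00% of all genes called lower and 3.67% called higher, 2 were called lower and none higher. These were the intron-binding helicase Aqr (-3.04 and -1.07, mean -2.06 ± 1.39, adjusted p = 7.3e-05) and Eif4a2 (-2.61 and -0.45, mean -1.53 ± 1.53, adjusted p = 0.0063). Deficient RNA was well above background on 1 array for Aqr and on both for Eif4a2, a DEAD box factor of translation. Its relative Eif4a1 was at -0.16 ± 0.04 and the exon junction member Eif4a3 at -0.34 ± 0.46, neither called. Ddx39b, named Bat1a on the array, was at -1.24 and -0.76 (-0.998 ± 0.34, adjusted p = 0.118). Of 30 cell cycle genes, 18 were measured, with a median of -0.26 and no call in either direction. At an unadjusted p under 0.05 by limma there were 0, beside 21.9% of all genes. The cell cycle median was -0.41 on replicate 1 and 0.01 on replicate 2.

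Markers of other cells moved between the same RNA samples. Of 14 macrophage markers, 13 were measured and all 13 were called higher in deficient RNA, with a median of 3.25. Their summed level was 36490 and 24331 in wild-type RNA and 300866 and 241277 in deficient RNA. Of 8 measured B-cell markers 6 were higher (summed level 50370 and 35641 against 124313 and 215495). Of 6 neutrophil markers 3 were higher (11864 and 9748 against 86654 and 50748), and all 4 measured erythroid markers were (123747 and 50067 against 273874 and 285177). Of 11 CD8 T-cell markers 4 were lower, namely Cd6, Cd3e, Cd5 and Cd3g, and their summed level was 181486 and 218989 against 105073 and 73690. Cd8a was at -0.91 ± 0.33 and Cd8b1 at -1.10 ± 0.56, not called. Both CD8 genes, which define the labelled cell type, were well above background in both channels on both arrays. All 13 macrophage markers were also well above background in both channels. The part of these cells in the helicase ratios was not tested.

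**Figure D5:**
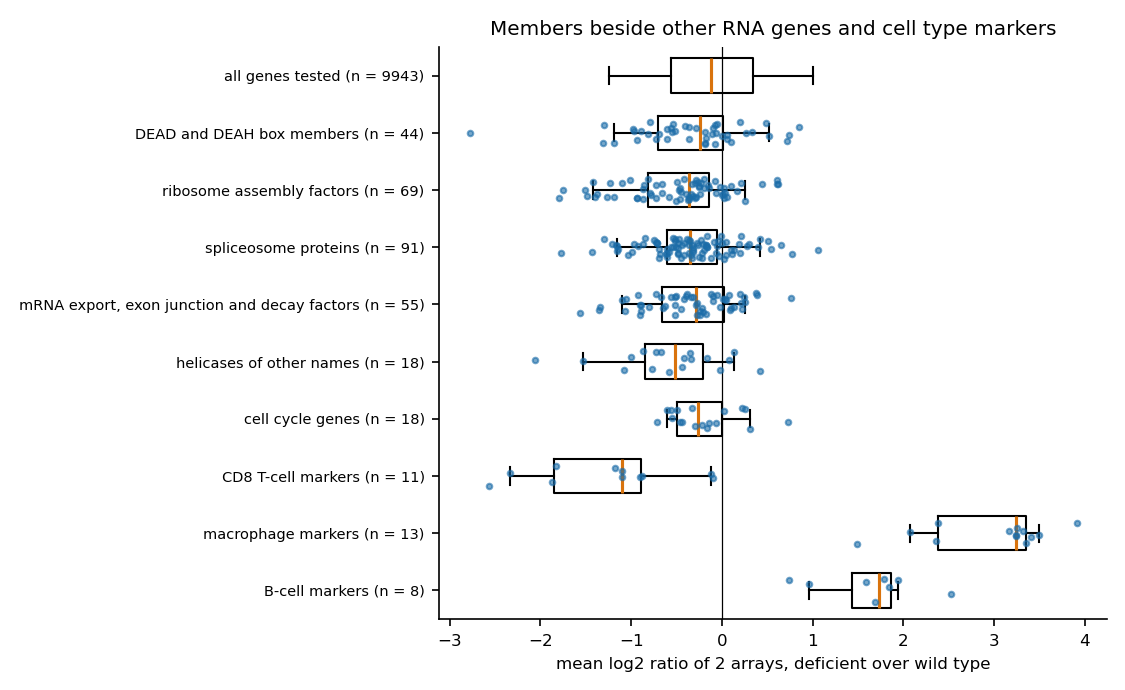
Mean log2 ratio of 2 arrays (x axis) for all genes tested, the members, 5 lists of related genes and 3 lists of cell type markers. Boxes span the quartiles with the median in orange, whiskers run from the 5th to the 95th percentile, and points are genes. The medians of the members (-0.24), the RNA lists (-0.51 to -0.28) and the cell cycle genes (-0.26) lie below that of all genes (-0.12). CD8 T-cell markers lie at -1.10, and macrophage markers at 3.25.

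The 4 calls changed with the processing. Under the other processing settings Ddx18 stayed below 0 in 10 of 10 and was called in 6, with a mean ratio between -3.26 and -1.40. Ddx26b was called in 5 of 10, Ddx31 in 4 and Ddx19b in 3, all with ratios below 0 throughout. With the ratios of the scanner program no member was called. The mean of the 2 arrays kept its sign in every other setting for 33 of 44 members, 26 of them below 0 and 7 above, and took both signs for 11. On each single array as well, under the reported setting, 26 members kept that sign, 20 below 0 and 6 above. The 6 were Ddx19a, Ddx25, Ddx23, Ddx6, Dhx8 and Ddx28. Most of the 20 passed the filter through wild-type RNA alone, and Ddx19a and Ddx23 through deficient RNA alone. This favours the sign they had, so these counts are descriptions. Of all genes, 41.6% were below 0 and 32.4% above 0 on both arrays under the reported setting. The counts over settings have no share of all genes beside them.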

How the data were processed

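Both arrays are 2-colour Agilent mouse arrays. Per the file headers, the deposited scanner files hold spot intensity values (mean signal and local background) from Agilent Feature Extraction 9.5.3.1, which also subtracted a fitted background, applied LOWESS and gave the log10 of red over green. Those log10 ratios are also what the deposited value table lists: it differs from the scanner files by at most 0.00500 (replicate 1) and 0.00493 (replicate 2), it runs as deficient over wild type, and both columns have a median of 0. Per the labels, RNA was linearly amplified before labelling.

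From the deposited intensities, the log2 ratio was computed with limma 3.58.1 in R 4.3.3: normexp (offset 50), loess within arrays with control spots at weight 0, flagged spots left out (255 and 195), and probes kept if, on both arrays, 1 channel was well above background (12619 of 41174). The brightest probe stood for a gene. The mean of 2 arrays was tested against 0 (lmFit and eBayes, two-sided, Benjamini-Hochberg over all 9943 genes, threshold 0.05), and statmod 1.5.0 served the separate-channel fit. The prior degrees of freedom were infinite. The script was tested on simulated data. The number of arrays limits the precision. Both arrays lie on 1 slide, so no slide effect could be tested.

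A gene not well above background in 1 channel on both arrays has only a bound: the brighter group's mean against the dim group's own level or, where higher on an array, the lowest level that counted as well above background, after loess and Aquantile, open to dye bias. Probe coordinates come from the scanner files (NCBI36), and exons were not assigned. Symbols were updated through RefSeq (GRCm38.p6).

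Members and lists were chosen with earlier results of these data known. Named were called members, the 2 highest and 2 lowest of each role, close paralogs, and, of each list, up to 3 called genes by smallest adjusted p; other members complete the account and were named after their values were seen. Alternatives were no background correction, an offset of 16, median centring, centring on the median gene, the scanner program's ratios, the deposited table, other filters, probe means, current symbols, separate channels and single arrays.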

Additional observations from a re-analysis of the deposited data

How the results depend on the processing

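The count of 4 members called lower became 1 without background correction (Ddx18), 1 when both channels had to be well above background (Dhx9), and 0 with the scanner program's ratios, the deposited value table, dim probes left in and separate channels. At an unadjusted p under 0.05, limma gave 9, 9, 11 and 6 members in those last 4 settings (20.5%, 20.5%, 22.4% and 13.6%), beside 22.6%, 22.6%, 18.6% and 20.2% of all genes. The count was 4 with an offset of 16, probe means and current symbols. It was 3 with median centring, where Dhx9 was among the 3, and 3 with centring on the median gene. It was also 3 without Ddx26b, an alternative chosen after seeing the data. No member was called higher in any of these settings. The median member lay at -0.66 with median centring, where the median of all genes moved to -0.41, and between -0.46 and -0.07 in the other settings, with all genes at -0.24 under the scanner program's ratios. Single arrays, which allow no test, put it at -0.45 and -0.04, and the cell cycle median without replicate 1 was 0.0050. The ribosome assembly, spliceosome, export and decay, and other helicase lists, with 10, 4, 3 and 2 genes lower, had 0 lower with the scanner program's ratios, the deposited table, no filter and separate channels, 4, 1, 0 and 2 without background correction, and 3, 6, 2 and 2 with both channels well above background. Median centring gave 8, 7, 3 and 3, and their medians stayed below 0 in every setting. The cause was not tested.

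Counts of all genes called lower and higher were 597 and 365 (62.1% lower). They were 190 and 293 (39.3% lower) without background correction, 352 and 69 (83.6%) with median centring, 564 and 540 (51.1%) after centring on the median gene, 212 and 547 (27.9%) with the stricter filter, 77 and 56 with the scanner program's ratios, 1 and 26 with separate channels, and none without a filter, where 5153 had an unadjusted p under 0.05 by limma. Each ratio sets the deficient RNA of 1 array against the wild-type RNA of the same array, so the test is already paired. On replicate 1 the deficient channel of all 4 called members was not well above background, and without background correction the mean ratio of Ddx18 was -1.40.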
